A study of Mus musculus with 43 samples.

Results

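Cell cycle inhibitor genes were followed through the repressive chromatin of mouse embryonic fibroblasts (MEFs). The 8 genes were *Cdkn2a*, which holds Ink4a and Arf, *Cdkn2b*, *Cdkn2c*, *Cdkn2d*, *Cdkn1a*, *Cdkn1b*, *Trp53* and *Rb1*. They were taken by name, with earlier results of these data known, from 20780 protein-coding genes on the 19 autosomes. The study asked where H3K9me2, H3K9me3, H3K27me3 and the H3K9 methyltransferase Setdb1 lie, and used chromatin immunoprecipitation followed by sequencing (ChIP-seq) of 43 libraries. All cells came from E13.5 embryos of 129/C57 dams and CAST sires, and all were transduced with a short hairpin retrovirus and selected in puromycin. The female cells were Setdb1+/+ Xist-deltaA/+ with the Nonsilencing hairpin and had 3 libraries per target. The Setdb1-depleted cells were Setdb1+/gt Xist-deltaA/+ with shSetdb1 and had 2 libraries per target. The male cells were Setdb1+/+ X/Y with the Nonsilencing hairpin and had 3 libraries per target. Whole cell extract, the control for Setdb1, had only 1 library in each kind of cells. The gt allele carries a gene trap. Both groups of female cells carry Xist-deltaA, which leaves the other X as the one that is inactivated. The Setdb1-depleted cells therefore differ from the female cells in both genotype and hairpin, and the 2 cannot be told apart.

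For each target, the libraries of 1 kind of cells were pooled into a single peak list, so there is no spread between replicates and no difference was tested. A peak that is present in part of the cells and one that is weaker in all of them cannot be told apart. A few features of the files bear on what follows. The extraction protocol in the labels speaks of NSCs while titles and tissue say MEFs, and the header of the Setdb1-depleted Setdb1 list names the control hairpin where the labels give shSetdb1. The methods describe immortalisation of MEFs by long passage or by knockdown of p53, without saying whether the cells used for ChIP-seq had been immortalised, and that history was not tested here. The identity of the cells was checked on H3K27me3. The main starts of 0 of 12 fibroblast genes, collagens among them, were covered in each list, against 10 of 11 autosomal genes of other lineages. Over all autosomal protein-coding genes the share was 20.4% (female), 18.1% (Setdb1-depleted) and 18.4% (male). A start outside H3K27me3 is thus the common case, and the 0 of 12 alone does little to identify the cells.

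As background, these genes are the brakes of the cell cycle. The Ink4 proteins bind and block the kinases Cdk4 and Cdk6, the Cip/Kip proteins bind cyclin and kinase complexes more widely, and both act to keep Rb1 in the form that holds E2F factors in check. Arf, read from the same gene as Ink4a in another frame, binds Mdm2 and so stabilises p53, which in turn activates *Cdkn1a*. The Ink4a-Arf locus is a textbook target of Polycomb in young fibroblasts, and it becomes active with long culture. H3K27me3 is laid down by Polycomb group proteins over broad stretches, while H3K9me2 and H3K9me3 are marks of other repressive pathways, H3K9me3 in particular over repeats.

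The sequences at the centre of the locus are given first, because the edge of the H3K27me3 domain described below lies between the Arf start and *Cdkn2b*. All are from GRCm38.p6, which is mm10, with those upstream of the starts also in RefSeq. Each reads 5′ to 3′ on the strand named and has its CpG dinucleotides in capitals. The first 3 are the bases just upstream of the Arf start (chr4:89294654-89294869, minus strand), of the Ink4a start (chr4:89282193-89282442, minus strand) and of the *Cdkn2b* start (chr4:89311040-89311282, minus strand). The last is the single Setdb1 peak found near any of the 8 genes (chr4:89296617-89296713, plus strand).
Arf: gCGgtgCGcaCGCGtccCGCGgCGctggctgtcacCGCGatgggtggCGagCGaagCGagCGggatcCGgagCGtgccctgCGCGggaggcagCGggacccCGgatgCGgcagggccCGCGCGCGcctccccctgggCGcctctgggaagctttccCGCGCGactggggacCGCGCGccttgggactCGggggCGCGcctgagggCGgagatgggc
Ink4a: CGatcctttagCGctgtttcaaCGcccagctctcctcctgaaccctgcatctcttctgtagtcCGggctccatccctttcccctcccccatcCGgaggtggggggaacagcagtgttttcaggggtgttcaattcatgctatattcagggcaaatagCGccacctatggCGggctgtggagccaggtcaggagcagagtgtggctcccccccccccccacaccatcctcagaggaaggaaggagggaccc
Cdkn2b: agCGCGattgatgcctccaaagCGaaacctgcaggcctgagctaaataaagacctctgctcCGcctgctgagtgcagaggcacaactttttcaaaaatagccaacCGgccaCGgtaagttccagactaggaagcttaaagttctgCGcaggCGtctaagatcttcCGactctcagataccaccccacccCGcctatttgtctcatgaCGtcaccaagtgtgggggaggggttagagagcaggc
Setdb1 peak: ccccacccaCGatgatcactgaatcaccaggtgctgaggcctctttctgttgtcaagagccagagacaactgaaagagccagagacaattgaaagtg

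The printed stretch before the Arf start held 35 CpG dinucleotides in 216 bases and had a GC content of 78.7%. The stretch before the Ink4a start held 7 in 250 bases, and the one before *Cdkn2b* held 11 in 243. Over the full 250 bases before the RefSeq start, Arf had 40 CpG dinucleotides. Of 31396 autosomal promoters, 1.34% had at least 40, and the median was 6. In the 250 bases before each RefSeq start, the hexamer GGGCGG was counted on both strands. It occurred 2 times for Arf and 0 times for Ink4a and *Cdkn2b*, and 33.0% of those promoters held it. The RefSeq start of Arf lies 34 bases downstream of the GENCODE start, so its 250 bases reach past the printed stretch into the GENCODE transcript. The motif CCAAT, counted likewise and held by 33.7% of promoters, was found 0 times before all 3 starts. So was TATAAA, held by 12.4%. The 97 bases of the Setdb1 peak held 1 CpG and 0% repeat-masked sequence. RefSeq gave 10 promoters for 7 of the 8 genes.

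Of the 8 genes, 1 was itself covered by H3K27me3. *Cdkn2a* (ENSMUSG00000044303.6, chr4:89274471-89294653, minus strand) lay in full inside 1 peak of 60 kb, chr4:89235001-89295000, in female, Setdb1-depleted and male cells alike. Both edges were identical in the 3 lists. The peak took in both starts, Ink4a at position 89282192 and Arf at position 89294653, as well as 37.7 kb of the long non-coding gene *Gm12606*, and it ended 347 bp beyond the Arf start. Edges fall on a grid of 5 kb, so this distance says that the peak ended in the grid step next to Arf, not where the mark ends to the base. From the Ink4a start the edge was 12.8 kb away. The other end of the peak was 39.5 kb past the 3′ end of *Cdkn2a*.

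Identical edges in all lists were not common over all autosomal peaks. Of 7293 autosomal H3K27me3 peaks in female cells, 10.7% had both edges in common with a peak of each other list. Of the 1051 female peaks at least 60 kb wide, the share was 8.75%. The share among peaks that cover a start was not computed, and several such peaks of related genes, given below, had identical edges as well. The median autosomal peak was 25 kb in each list, and 14.4% (female), 10.7% (Setdb1-depleted) and 13.4% (male) were at least 60 kb wide.

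**Figure D1:**
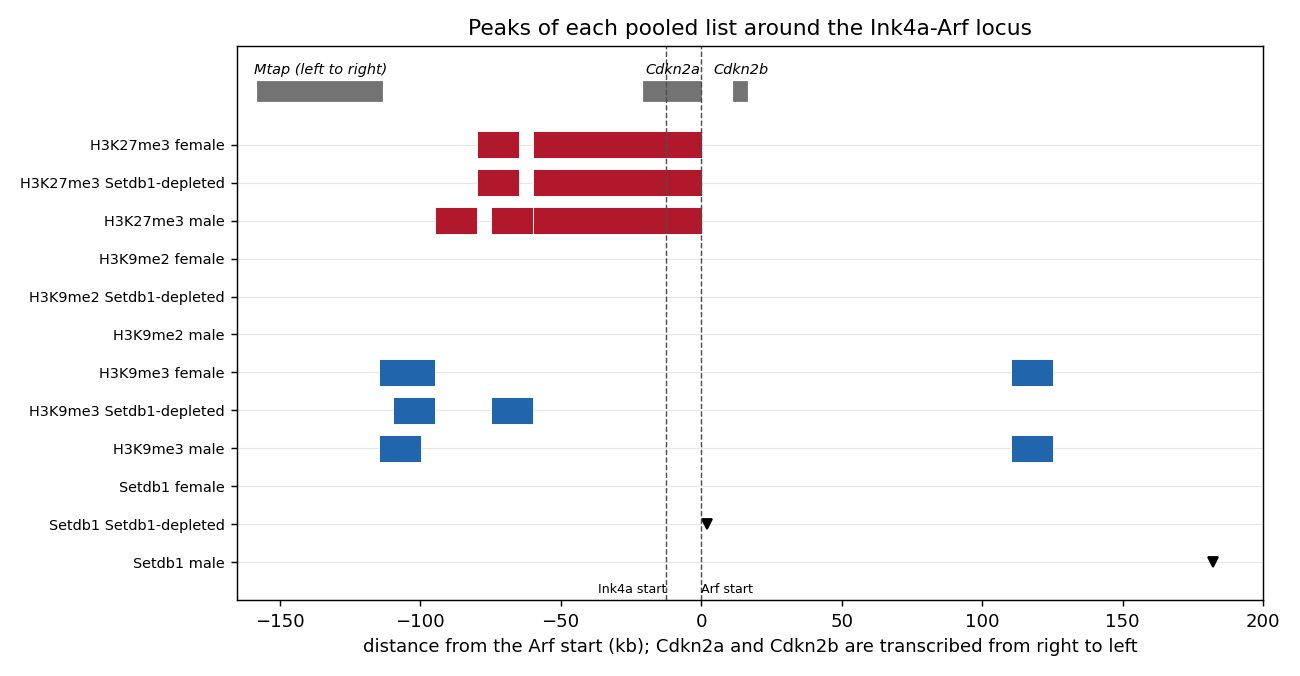
Peaks of the 12 pooled lists around the Ink4a-Arf locus, by distance from the Arf start in kb, with 1 row per target and kind of cells, filled bars for histone peaks, triangles for Setdb1 summits and grey bars for genes. The 60 kb H3K27me3 peak has the same edges in the 3 kinds of cells and ends next to the Arf start, short of *Cdkn2b*.

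Genes fully inside an H3K27me3 peak made up 8.93%, 7.51% and 8.33% of autosomal protein-coding genes in female, Setdb1-depleted and male cells, and 1 of the 8 inhibitor genes, *Cdkn2a*, was among them in each list. A main start inside a peak was found for 20.4%, 18.1% and 18.4% of genes, and again for 1 of the 8. Among 19 annotated transcripts of the 8 genes, 2 began inside an H3K27me3 peak in all 3 lists, and those were the Ink4a and Arf transcripts.

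*Cdkn2b* (ENSMUSG00000073802.5, chr4:89306299-89311039, minus strand), the neighbour that encodes another Ink4 protein, was left out of the domain. The peak stopped 11.3 kb short of its 3′ end and 16.0 kb short of its start in each of the 3 lists, and 0% of the gene was covered. The window of *Cdkn2b* (the gene with 50 kb on each side, as used for every histone value here) was 36.95% covered in all 3 kinds of cells, entirely by the *Cdkn2a* domain. The windows of the 2 genes overlap, so their values are not independent.

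Next to the domain, on the side away from *Cdkn2b*, lay smaller peaks that did differ between lists. Female and Setdb1-depleted cells had a peak of 15 kb at chr4:89215001-89230000. Male cells had one of the same width a single grid step closer, at chr4:89220001-89235000, which abutted the domain, and a further one at chr4:89200001-89215000. The window of *Cdkn2a* was thus 54.5% covered in the female list, 54.5% in the Setdb1-depleted list and 58.7% in the male list. At least as much of the window was covered for 8.80%, 6.52% and 6.52% of autosomal genes in the same order.

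H3K9me3 around the locus also differed between lists. In the Setdb1-depleted list a peak of 15 kb lay at chr4:89220001-89235000, covering 8.76% of the *Cdkn2a* window, where the female and male lists had 0%. H3K27me3 peaks covered 66.7% of the same 15 kb in female and Setdb1-depleted cells and 100% in male cells. An overlap with an H3K27me3 peak was found for 17.5% (female), 9.63% (Setdb1-depleted) and 17.9% (male) of autosomal H3K9me3 peaks. The study reports that its H3K9me3 antibody reacts slightly with H3K27me3, and holds this unlikely to matter for its own results. The part of that reactivity in these overlaps was not tested. The nearest H3K9me3 peak to *Cdkn2a* was 74.5 kb away in female cells and 79.5 kb away in male cells. These peaks lay on the *Mtap* side, and Setdb1-depleted cells had a peak there as well, at chr4:89185001-89200000. On the *Cdkn2b* side, 94.0 kb from that gene and outside its window, female and male cells had an H3K9me3 peak of 15 kb at chr4:89405001-89420000 that the Setdb1-depleted list lacked. The Setdb1-depleted peak in the *Cdkn2a* window was lost with 25 kb in place of 50 kb on each side of the gene, and with only peaks of at least 20 kb, which gave 0% covered.

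The 2 parts of the locus also differed in sequence and in the H3 control. The 60 kb domain was 39.1% repeat-masked and had 20.9, 21.2 and 20.5 H3 reads per kb in the female, Setdb1-depleted and male pools, on the scale to which the authors brought the H3 pools. The median autosomal H3K27me3 peak had 20.7 to 20.9 reads per kb of H3 in the pool of its own cells and was 27.3% to 29.4% repeat-masked. The peak at chr4:89220001-89235000 was 87.1% repeat-masked, and its H3 was 9.40, 9.63 and 9.66 reads per kb. The peak at chr4:89215001-89230000 was 86.8% repeat-masked, with 7.80, 7.90 and 7.24 reads per kb. Only 1.70% of female autosomal H3K27me3 peaks had as few H3 reads per kb as that, or fewer. H3 was the control for calling peaks, and the part of its low level in the flanking peaks, H3K9me3 included, was not tested. Over the 60 kb domain the H3 level was close to the list medians in all 3 pools. Whether part of the locus was lost in some cells or on an allele was not tested.

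**Figure D2:**
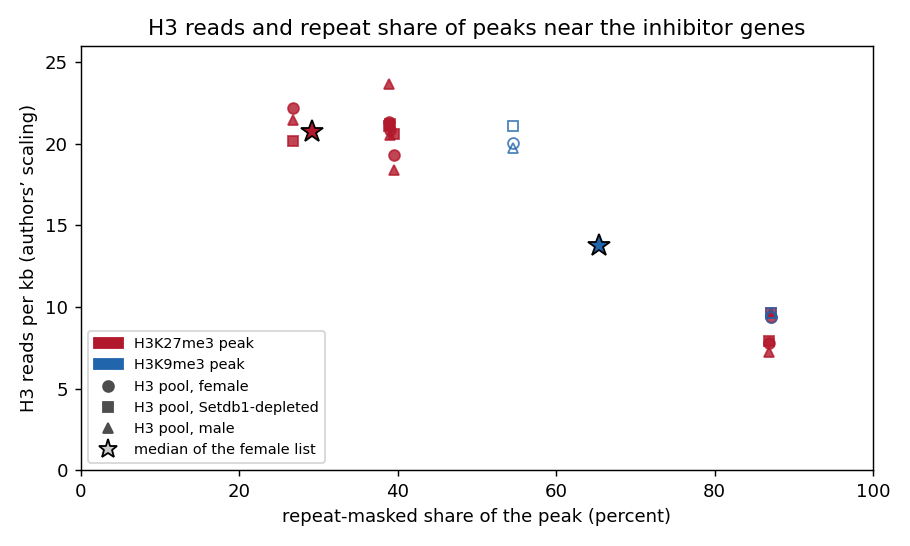
H3 reads per kb, on the authors' scale, against the repeat-masked share in percent for each distinct peak within 50 kb of the 8 genes, with symbols for the 3 H3 pools, colours for the mark and stars for the medians of the female lists. The flanking peaks of *Cdkn2a* sit apart at about 87.1% repeats and under 10 reads per kb. There, an H3K27me3 peak of the male list and an H3K9me3 peak of the Setdb1-depleted list share the same coordinates and overlie each other.

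Within 20 kb of these genes, Setdb1 was found only beside Arf, and only in the Setdb1-depleted list. Its peak of 97 bp lay 1.96 kb upstream of the Arf start, 1.62 kb outside the edge of the H3K27me3 domain, and 9.59 kb from the 3′ end of *Cdkn2b*. It therefore counted for 2 of the 8 genes within 20 kb in Setdb1-depleted cells, against 0 of 8 in female and 0 of 8 in male cells. Over all autosomal protein-coding genes, 4.07% (female), 1.33% (Setdb1-depleted) and 9.74% (male) had a Setdb1 peak that near. The peak was weak. The pileup at its summit was 6 reads, its fold enrichment 3.5 and its −log10 p 4.08, and its −log10 q was 0, that is a q of 1. In the same list 26.1% of 337 autosomal peaks had a q of 1 and 23.7% had a −log10 p no higher than this one. The calls drew on 18134299, 14405821 and 12320583 reads in female, Setdb1-depleted and male cells after down-sampling. The list that holds the peak is also the one whose header names the control hairpin, and no Setdb1 protein or transcript level was analysed here.

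The other Ink4 genes were free of marks over the gene itself. *Cdkn2d* (ENSMUSG00000096472.2, chr9:21288410-21291407, minus strand), which encodes an Ink4 protein, had a single H3K27me3 peak of 25 kb in its window, chr9:21235001-21260000, with identical edges in the 3 lists. That peak lay 28.4 kb downstream of the gene, covered 20.96% of the window, and took in the starts of *Keap1*, the inhibitor of the stress factor Nrf2, and of *S1pr5*, a receptor for sphingosine 1-phosphate. *Cdkn2c* (ENSMUSG00000028551.14, chr4:109660876-109667189, minus strand), the remaining Ink4 gene, had no H3K27me3 within 50 kb, and its nearest such peak was 60.9 kb away in female and Setdb1-depleted cells and 121 kb away in male cells.

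What *Cdkn2c* had was H3K9me3. A peak of 15 kb at chr4:109690001-109705000, inside *Faf1* and 22.8 kb upstream of the *Cdkn2c* start, was present with the same edges in female and male cells and covered 14.1% of the window. It was missing from the Setdb1-depleted list, where the nearest H3K9me3 peak was 50.9 kb away, just beyond the window. H3 over this peak stood at 20.1, 21.1 and 19.8 reads per kb in the female, Setdb1-depleted and male pools. The Setdb1-depleted H3K9me3 list is also shorter as a whole, with 3467 autosomal peaks against 5820 in female and 5217 in male cells. Whether the absence at *Cdkn2c* goes beyond that was not tested. No Setdb1 peak lay within 20 kb of *Cdkn2c* in any list, the nearest being 104 kb away in male cells.

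Of the Cip/Kip genes, *Cdkn1a* (ENSMUSG00000023067.14, chr17:29090976-29100727, plus strand) encodes the inhibitor that p53 switches on. Its window held a 10 kb H3K27me3 peak in the Setdb1-depleted list alone, chr17:29125001-29135000, inside *Rab44* and 24.3 kb downstream of *Cdkn1a*, which made up 9.11% of the window. A peak of 10 kb is the narrowest that any histone list holds. In female and male cells the nearest H3K27me3 peak was 84.3 kb and 109 kb away. *Cdkn1b* (ENSMUSG00000003031.14, chr6:134920401-134925513, plus strand), which encodes the inhibitor of cyclin E and Cdk2 complexes, was the farthest of the 8 genes from H3K27me3. Its nearest peaks were 495 kb (female), 354 kb (Setdb1-depleted) and 519 kb (male) away. Its nearest Setdb1 peak was 50.6 kb away, in male cells.

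*Trp53* (ENSMUSG00000059552.13, chr11:69580359-69591873, plus strand) encodes p53. A 20 kb H3K27me3 peak with identical edges in Setdb1-depleted and male cells, chr11:69600001-69620000, lay 8.13 kb downstream of it and took up 17.9% of the window. It covered the starts of *Atp1b2*, a subunit of the sodium pump, and *Shbg*, the sex hormone binding globulin, and it did not reach *Trp53*. Female cells lacked this peak, and their nearest one was 50.4 kb from the gene, just outside the window. H3 over the 20 kb was 22.2, 20.2 and 21.4 reads per kb in the female, Setdb1-depleted and male pools. *Rb1* (ENSMUSG00000022105.6, chr14:73183673-73325822, minus strand), the pocket protein itself and at 142 kb the longest of the 8 genes, had no histone or Setdb1 peak in its windows in any of the 12 lists. The nearest H3K27me3 peak was 73.7 kb from the gene in all 3 kinds of cells.

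**Figure D3:**
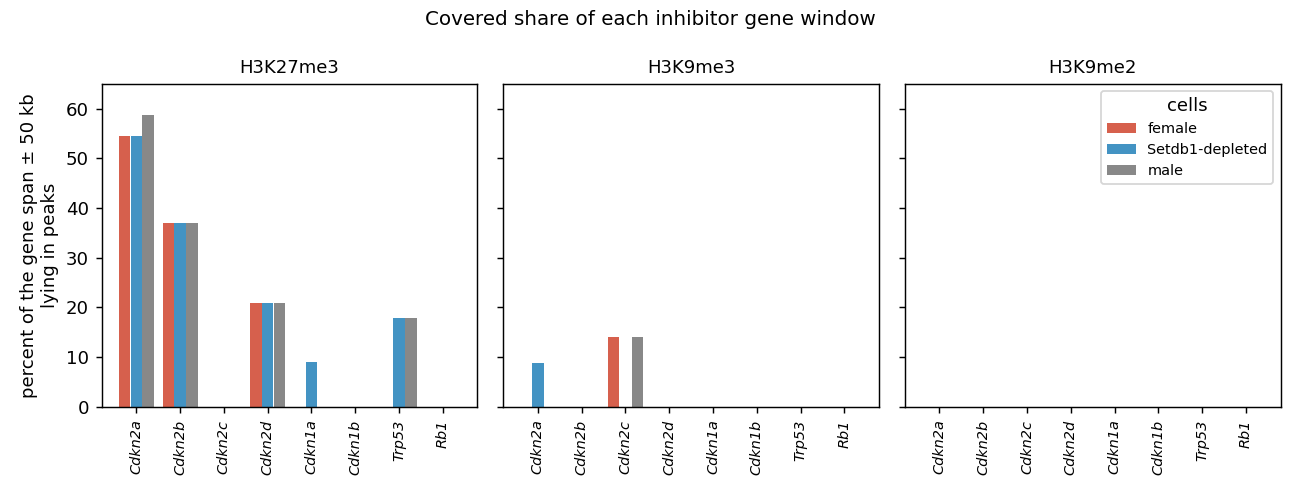
Percent of each gene's window, the gene with 50 kb on each side, that lies in peaks, with 1 panel per histone mark and 1 bar per kind of cells. *Cdkn2a* stands highest for H3K27me3 at 54.5% to 58.7%, and the H3K9me2 panel is empty because all of its values are 0%.

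Counted over the 8 genes, an H3K27me3 peak lay within 50 kb of 3 (female), 5 (Setdb1-depleted) and 4 (male). Of all autosomal protein-coding genes, 56.1%, 51.4% and 52.3% had one in the same order, so the counts stand near the background. The mean covered share over the 8 windows was 14.1%, 17.4% and 16.8%, beside means of 17.3%, 14.6% and 15.8% over all genes. The extra genes in the Setdb1-depleted list were *Trp53*, which male cells shared, and *Cdkn1a*. Nearest to the 50 kb limit on its inner side was the 15 kb peak 44.5 kb from *Cdkn2a* in female and Setdb1-depleted cells, and on its outer side the female peak 50.4 kb from *Trp53*.

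For H3K9me3 the count was 1 of 8 in each list, *Cdkn2c* in female and male cells and *Cdkn2a* in Setdb1-depleted cells. Of all autosomal genes, 23.4%, 14.0% and 20.5% had one in the same order of lists. The mean covered share of the 8 windows was 1.76%, 1.10% and 1.76% in the same order, beside 4.39%, 3.14% and 4.10% over all genes. H3K9me2 was found within 50 kb of 0 of the 8 genes in each list, where 6.88%, 5.14% and 6.81% of all genes had such a peak. The closest H3K9me2 peak to any of the 8 was 338 kb away, from *Cdkn2c* in female and Setdb1-depleted cells, and the farthest was 13478 kb from *Trp53* in Setdb1-depleted cells.

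**Figure D4:**
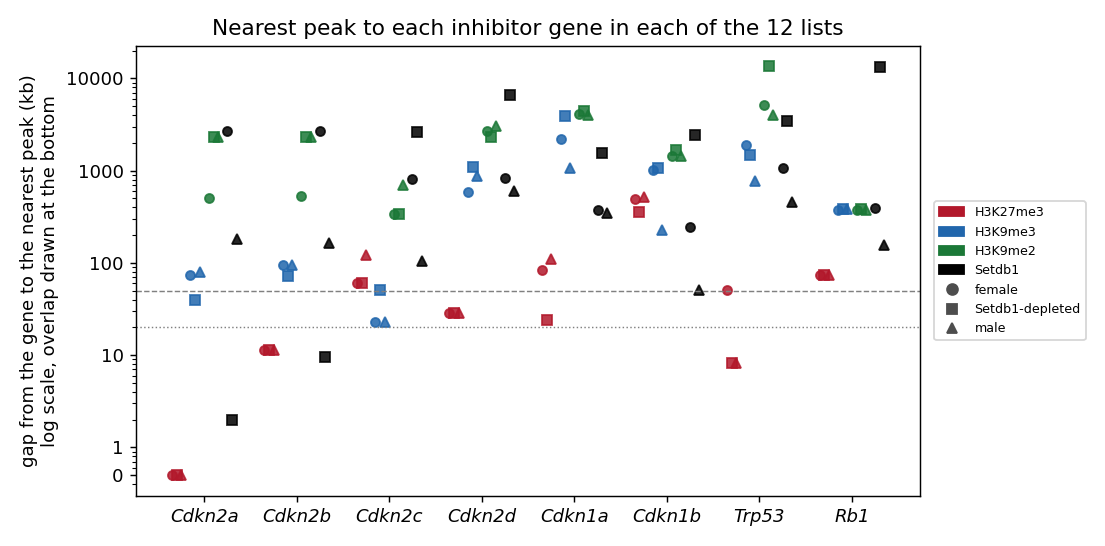
Gap in kb, on a log axis, from each of the 8 genes to the nearest peak of each of the 12 lists, with colours for the target and symbols for the kind of cells, and with 0 drawn at the bottom. The dashed line marks the 50 kb limit for histone peaks and the dotted line the 20 kb limit for Setdb1; only *Cdkn2a* has a gap of 0, and the lowest H3K9me2 points lie at 338 kb.

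Around the 8 genes stands a wider set of 40 genes of the same pathway. H3K27me3 peaks covered the main start of 8 of them in the female list (20%), 8 in the Setdb1-depleted list (20%) and 7 in the male list (17.5%), beside the 20.4%, 18.1% and 18.4% of all genes given above. Among the other inhibitors, *Cdkn1c*, an imprinted Cip/Kip gene, had its start in a peak of 90 kb in female and Setdb1-depleted cells and of 60 kb in male cells. As for *Cdkn2a*, 100% of the gene was covered in the 3 lists.

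Cyclins and kinases gave 3 of 10 starts in each list, beside 20.4% (female), 18.1% (Setdb1-depleted) and 18.4% (male) of all genes. The start of *Ccnd2*, a D-type cyclin, lay in a 20 kb peak that held 8.11% of the gene. The start of *Cdk4*, a kinase that Ink4 proteins bind, lay in a 25 kb peak, and 33.4% of the gene was covered. Both peaks had the same edges in the 3 lists. *Ccna1*, the cyclin A of the germ line, had a peak of 100 kb (female), 60 kb (Setdb1-depleted) and 80 kb (male). Of 10 pocket proteins and E2F factors, 0 had a start covered in each list. A peak lay within 50 kb of 5, 3 and 5 of them in female, Setdb1-depleted and male cells. The shares over all genes were 56.1%, 51.4% and 52.3% in the same order. Of the p53 family and its control, *Trp73*, a relative of p53, was the 1 gene of 5 with its start covered, by 85 kb in female, 55 kb in Setdb1-depleted and 90 kb in male cells.

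Among 13 genes listed as Polycomb genes, 3 starts (female), 3 (Setdb1-depleted) and 2 (male) lay in H3K27me3 peaks. Action of their products on the locus was not measured here. Over all genes the shares were 20.4%, 18.1% and 18.4% in the same order. *Bmi1*, a PRC1 subunit known for restraining Ink4a-Arf, lay in a 40 kb peak with the same edges in the 3 lists. *Cbx8*, a PRC1 subunit that reads H3K27me3, lay in a 45 kb peak with the same edges in the 3 lists. The start of *Ezh2*, the H3K27 methyltransferase, fell just inside the rim of a 30 kb peak in the female list, which held 0.523% of the gene, and outside any peak in the other lists. H3K27me3 covered 24.4% of its window in female, 6.26% in Setdb1-depleted and again 24.4% in male cells. The start of *Cbx7*, another reader, lay in a 15 kb peak in the Setdb1-depleted list, where 20.1% of the gene was covered. Its window was nonetheless covered to a like extent in the female (31.7%), Setdb1-depleted (29.2%) and male (29.2%) lists. *Ring1*, a PRC1 ubiquitin ligase, was the 1 gene of the 40 with its start in an H3K9me3 peak, in female cells. The share of all genes with a start in an H3K9me3 peak was not computed, so this count has no background beside it.

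Setdb1 peaks lay within 20 kb of 3 of the 40 genes (7.5%) in the female list, 0 in the Setdb1-depleted list and 3 (7.5%) in the male list. The shares over all genes, given above, were 4.07%, 1.33% and 9.74%. In female cells they lay by *E2f6*, a repressive E2F factor, *Trp63*, a p53 relative, and *Ring1*. In male cells they lay by *Ccne2*, a cyclin of the G1 to S transition, *E2f5*, an E2F factor of pocket protein complexes, and *Eed*, a PRC2 subunit. Their −log10 p ran from 4.08 at *E2f5* to 6.02 at *Ring1*. That of *Ccne2* alone also passed a q of 0.05, with a −log10 q of 1.47.

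The protein-coding neighbours of the locus are *Mtap*, an enzyme of methionine salvage, on one side and *Dmrta1*, a DM domain factor, on the other. The 60 kb domain ended 53.9 kb from *Mtap* and 384 kb from *Dmrta1*. H3K27me3 covered 0% of *Mtap* itself in each list. The *Dmrta1* start lay in an H3K27me3 peak in female cells, where 100% of the gene was covered. In Setdb1-depleted cells 96.3% of *Dmrta1* was covered with the start left out, and in male cells 0%.

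**Figure D5:**
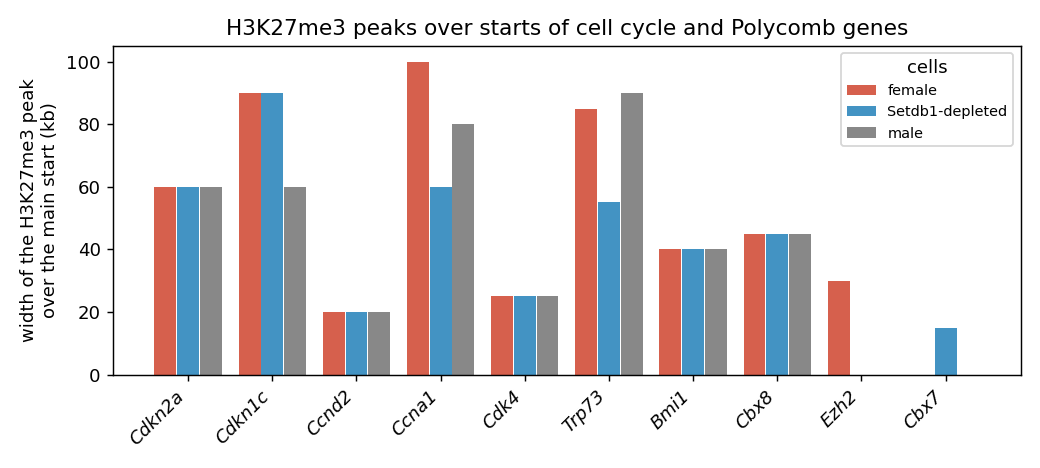
Width in kb of the H3K27me3 peak over the main start of *Cdkn2a* and of the 9 genes of the wider pathway set that had one in any list, with 1 bar per kind of cells and no bar where the start was not covered. *Cdkn2a*, *Ccnd2*, *Cdk4*, *Bmi1* and *Cbx8* have the same width in the 3 lists, while the starts of *Ezh2* and *Cbx7* lie in a peak in 1 list each.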

How the data were processed

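ChIP-seq libraries of H3K9me2, H3K9me3, H3K27me3, Setdb1, H3 and whole cell extract (WCE), 43 in 18 groups, were deposited as 12 peak lists, with H3 and WCE as controls. Reads were mapped by the authors (Bowtie2; mm10 masked at strain polymorphisms), who pooled the libraries of a group before calling. Histone peaks were called by the authors with the MACS-style caller of Seqmonk, with 10 kb fragments, p under 1e-05 and H3 as the control; these lists hold positions on a 5 kb grid and no score of the mark. They also hold H3 reads in log2 units, deposited for each of the 3 H3 pools and scaled by the authors to the deepest pool, which were taken out of the log and divided by the width of the peak. These lists do not give the depth of the mark libraries. Setdb1 peaks were called by the authors with MACS2 2.1.0.20140616 against WCE, with down-sampling, at p under 0.001. Each deposited peak has, per the file headers, a pileup (a coverage signal), a fold enrichment, which is a ratio, and a −log10 p and −log10 q. The lists have 0 columns of single samples or of other series.

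Genes and starts came from GENCODE M21 on GRCm38.p6 (mm10), repeat masking from the soft-masked genome, and promoters from RefSeq. A gene was counted when a histone peak overlapped the gene extended by 50 kb, or a Setdb1 peak the gene extended by 20 kb, by at least 1 bp. The named genes are the 8 of the list, the neighbours of *Cdkn2a* and *Cdkn2b*, and those of 40 pathway genes with a start in any peak or a Setdb1 peak within 20 kb; 1 further gene of that list is not reported here and is in no count. The main start is the 5′ end of the GENCODE gene span. The genes and lists were chosen with earlier results of these data known. With 1 list per group there was no test and no p-value of a difference. Overlap and coverage code was tested on simulated intervals. Computations used samtools 1.23.1 and, in Python 3.11.15, pandas 2.3.3 and scipy 1.17.1.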

Additional observations from a re-analysis of the deposited data

How the results depend on the processing

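Alternatives were the width, window, overlap and length limits of the lists. Every H3K27me3 count stayed within 1.5 times its value under all of them. The counts ran from 2 to 3 (female), 4 to 5 (Setdb1-depleted) and 3 to 4 (male). The H3K9me2 counts were 0, and these alternatives only drop peaks or narrow the window, so those counts could not move. Merging peaks up to 10 kb apart, and keeping the same number of widest peaks in each list, moved 0 of these results. The numbers kept were 6801 for H3K27me3, 1388 for H3K9me2 and 4204 for H3K9me3, ties broken by position. The shortest list of each mark was kept whole, so its results could not move under that setting. A move in a covered share was one beyond its 95% binomial interval over 201 grid steps. Neighbouring steps lie in the same peaks, so this interval is a working limit and measures no spread between replicates. H3K9me3 was less firm. Its count of 1 became 0 in each kind of cells with only peaks at least 20 kb wide, and the mean covered share became 0% as well. In Setdb1-depleted cells the count also became 0, with *Cdkn2a* lost, when the gene was extended by 25 kb, when 50 kb on each side of the start was used and when 10 percent of the window had to be covered; the mean share was 0% under the first 2 of these. With 25 kb the mean share in female and in male cells was 0.486%. The Setdb1 count of 2 in Setdb1-depleted cells became 0 with −log10 p of at least 5, and 0 with q under 0.05. For *Cdkn2d* the H3K27me3 share became 0% in the 3 lists with 25 kb, and for *Cdkn1a* with peaks of at least 20 kb. With 25 kb the share for *Cdkn1a* was 1.22% and that for *Trp53* 27.4% in both lists with a peak, and the H3K9me3 share for *Cdkn2c* was 3.89% in female and male cells.

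No paired analysis was possible because the deposited lists were called on pooled libraries. For the same reason leaving out each library in turn was not possible, and shares carry no replicate error. The Setdb1 calls used from 12320583 reads (male) to 18134299 (female), and the depth behind the histone lists is unknown.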
